A study of Rattus norvegicus with 20 samples.

Results

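The epoxide hydrolases measured here are Ephx1, the microsomal enzyme, and Ephx2, the soluble enzyme. Members were all probe sets of the array whose gene symbol is Ephx1 or Ephx2, which gave 2 of 14217 genes, with 1 probe set each of the 31042 on the array. Liver RNA came from 20 female Sprague Dawley rats, 1 array per rat, fed for 24 days on one of 4 diets with 5 rats each; their age is not given in the sources used here. The BNF rats ate 5,6-benzoflavone, which binds the aryl hydrocarbon receptor (AhR), at 1650 mg/kg diet. The D3T rats ate 3H-1,2-dithiole-3-thione at 600 mg/kg diet. The OLT rats ate oltipraz, which carries a methyl and a pyrazinyl group on the same dithiolethione ring, at 500 mg/kg diet. The control rats ate the Harlan Teklad mash diet without a compound, the base of all the diets.

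Epoxide hydrolases add water to a reactive epoxide ring and so turn it into a diol. Ephx1 sits in the membrane of the endoplasmic reticulum beside the cytochromes P450 and hydrolyses epoxides that these make from xenobiotics such as polycyclic aromatic hydrocarbons. Ephx2 works in the cytosol and in peroxisomes, where it hydrolyses fatty acid epoxides made by P450 epoxygenases. In rodent liver Ephx1 is known as an inducible gene of the xenobiotic response, with Nrf2 and the receptor CAR among its regulators, and Ephx2 is known to respond to activators of the fatty acid receptor PPARa.

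Values are log2 probe set summaries (GCRMA), so 1 unit is a doubling. A probe set was tested if it was above 4 in at least 5 arrays, which 12947 were, naming 7837 genes. It was called at a Benjamini-Hochberg adjusted p under 0.05 in limma. Pairs of arrays correlated between 0.93 and 0.992 across these probe sets, and hepatocyte markers such as Alb averaged 14.38 to 14.78 in every array. The array labelled D3T 5 correlated on average at 0.979 with the OLT arrays and 0.968 with the other D3T arrays. The array labelled OLT 1 correlated at 0.966 with the D3T arrays and 0.963 with the other OLT arrays. OLT 5 correlated at 0.97 with the control arrays and 0.965 with its own group. The processed values cannot show whether these labels are right, so D3T and OLT stand below for the arrays so labelled. The Ephx1 results and the counts of the pathway gene lists are given with and without D3T 5 and OLT 1, and values of other single genes use all arrays unless stated. The effect of OLT 5 is given with the alternatives in the closing section. Precision is limited by the number of arrays.

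Ephx1 rose in D3T livers and in OLT livers. The mean was higher with D3T, but these groups overlapped and did not differ by the test with all arrays. In BNF livers Ephx1 lay above control in every array, by a smaller difference that passed the test only in some settings. Ephx1 (probe set 1387669_a_at, gene ID 25315) had log2 values of 12.77, 12.34, 12.55, 12.88 and 13.18 in the BNF livers. In the D3T livers it had 14.36, 14.54, 14.49, 14.12 and 13.60. In the OLT livers it had 14.71, 13.61, 13.29, 13.20 and 13.64. The control livers had 12.14, 11.67, 12.22, 11.86 and 12.03. Every array of each compound diet lay above every control array. Among the D3T arrays the lowest was D3T 5, one of those that stand apart, and among the OLT arrays the highest was OLT 1. Probe sets with the suffix _a_at match several transcripts of a gene, so the values sum over Ephx1 transcripts. In bulk liver RNA a change in the number of cells of a type and a change in RNA per cell cannot be told apart.

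**Figure D1:**
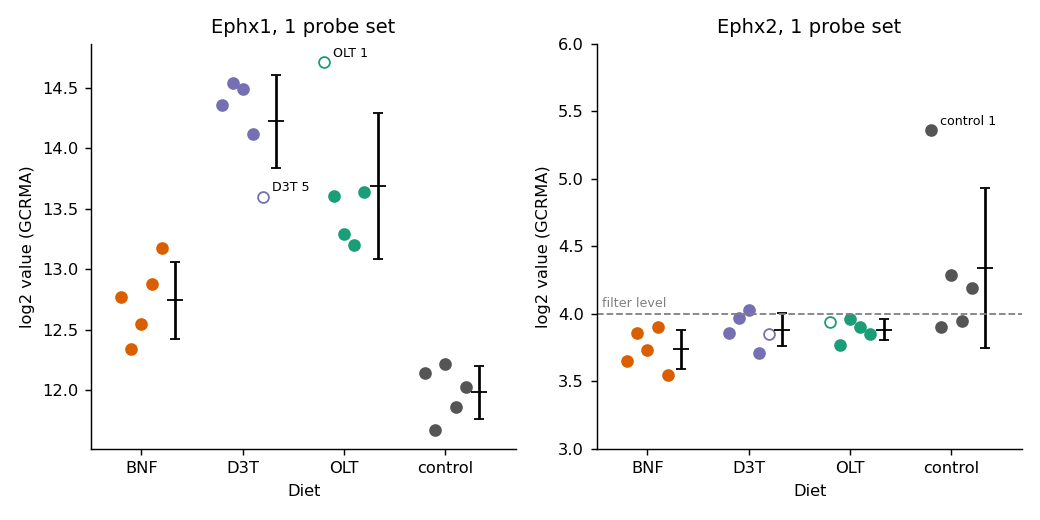
Log2 values of Ephx1 (left) and Ephx2 (right) in each array (points) by diet, with the mean and SD of each group of 5 (bars); open points are D3T 5 and OLT 1. All Ephx1 points of the compound diets lie above the control points, which reach 12.22, while most Ephx2 points lie under the filter level of 4.

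D3T gave the highest mean, 14.22 ± 0.38, then OLT 13.69 ± 0.60, BNF 12.74 ± 0.32 and control 11.98 ± 0.22 (log2, SD, n = 5 each). Between D3T and control the difference was 2.24 (SE 0.24, 95% interval 1.74 to 2.74), a 4.72-fold higher level (3.33 to 6.69), and it was called (limma, adjusted p = 1.26e-05). In this comparison 11.6% of the tested probe sets were called and 4.63% were called higher, and in 4.15% the D3T arrays all lay above the control arrays. After centring each array on its median 1227 were called higher in place of 599. Of the 599 called higher, 23 rose by more than Ephx1. Without the arrays that stand apart D3T averaged 14.38 ± 0.19 (SD, n = 4) and the difference was 2.39 (limma, adjusted p = 2.51e-08), with 13.2% of the tested probe sets called.

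OLT livers exceeded control livers in Ephx1 by 1.70 (SE 0.24, 95% interval 1.20 to 2.21), or 3.26-fold (2.3 to 4.62), which was called (limma, adjusted p = 0.000318). Of the tested probe sets 6.38% were called in this comparison, 1.53% were called higher, and 1.82% had all OLT arrays above all control arrays. After centring 635 were called higher in place of 198. Among the 198 called higher, 13 rose by more than Ephx1. The rise was smaller without the arrays that stand apart: OLT averaged 13.43 ± 0.22 (SD, n = 4), and the difference from control was 1.45 (limma, adjusted p = 4.69e-05), with 4.59% of the tested probe sets called.

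BNF livers exceeded control livers in Ephx1 by 0.76 (SE 0.24, 95% interval 0.26 to 1.26), or 1.69-fold (1.2 to 2.4), in 5 of 5 arrays. The difference did not pass the test (limma, adjusted p = 0.0929), in a comparison where 3.48% of the tested probe sets were called. The BNF and control arrays did not overlap, as in 2.62% of the tested probe sets with BNF higher. Without D3T 5 and OLT 1 the BNF difference stayed at 0.76, its SE was 0.15, and it was called (limma, adjusted p = 0.00719), as were 4.29% of the tested probe sets. Leaving out OLT 1 alone also gave a call (limma, adjusted p = 0.0207), although that array is in neither group, since all groups share 1 estimate of the spread.

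The 2 dithiolethiones were fed at different doses, 500 mg/kg diet for OLT and 600 mg/kg diet for D3T. Ephx1 was 0.53 lower in OLT than in D3T livers (log2 difference -0.53, 95% interval -1.04 to -0.03), the groups overlapped, and the difference was not called (limma, adjusted p = 0.431). In this comparison 0 probe sets were called by limma (0% of those tested), while 1385 had an unadjusted p under 0.05. Without D3T 5 and OLT 1 the OLT arrays, at 13.20 to 13.64, all lay below the D3T arrays, at 14.12 to 14.54, as in 5.25% of the tested probe sets. The log2 difference was then -0.94 (SE 0.17, 95% interval -1.30 to -0.59) and was called (limma, adjusted p = 0.00322), and 4.24% of the tested probe sets were called. The call between the compounds thus depended on those arrays. They were set apart in these same data for their likeness to the other dithiolethione group. D3T 5 was also the lowest D3T array in Ephx1 and OLT 1 the highest OLT array. Leaving them out therefore widens this difference, and the call without them is no separate support for it.

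Ephx1 was higher in the livers of both dithiolethione diets than in BNF livers in the fit of all 20 arrays. The doses were 600 mg/kg diet for D3T, 500 for OLT and 1650 for BNF. Compound and dose therefore cannot be told apart. D3T livers were 1.48 above BNF livers (95% interval 0.98 to 1.98, 2.79-fold; limma, adjusted p = 0.000375), where 14.9% of the tested probe sets were called, and 1.63 above without D3T 5 and OLT 1 (adjusted p = 1.89e-06). OLT livers were 0.94 above BNF livers (95% interval 0.44 to 1.45, 1.92-fold; limma, adjusted p = 0.0169), where 9.62% were called, and 0.69 above without those arrays (adjusted p = 0.012). The OLT difference was not called when only these 2 groups were fitted (limma, adjusted p = 0.0624). Neither pair of groups overlapped, as in 7.46% of the tested probe sets for D3T over BNF and 4.22% for OLT over BNF. Among neighbours in the order of levels, then, OLT and BNF differed by the test in the fit of all 20 arrays, while D3T and OLT did not, nor did BNF and control.

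**Figure D2:**
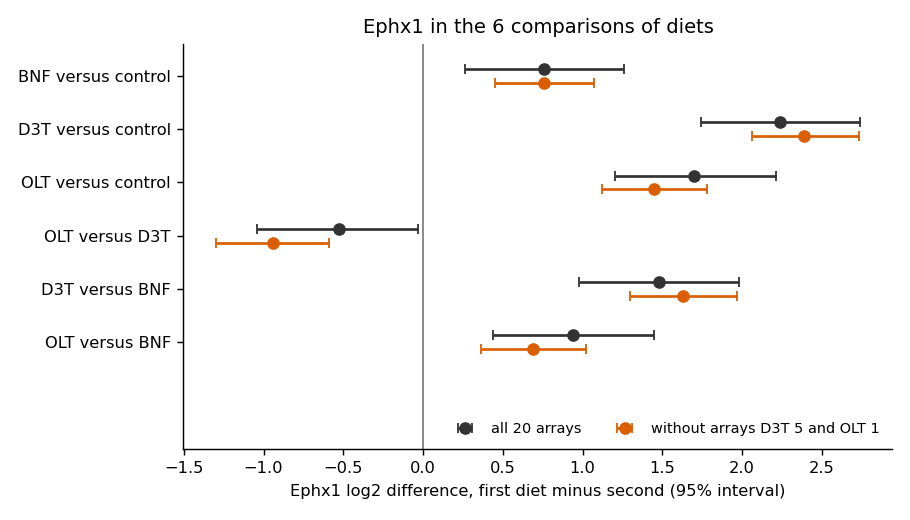
Ephx1 log2 difference (first diet minus second) with its 95% interval from limma in the 6 comparisons, with all 20 arrays (dark) and without D3T 5 and OLT 1 (orange). The intervals for D3T, OLT and BNF against control lie above 0 in both settings, and the OLT versus D3T interval lies further below 0 without the 2 arrays.

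Ephx2 (probe set 1369663_at, gene ID 65030) lay near the lower end of the measurable range. In the BNF livers its log2 values were 3.65, 3.86, 3.73, 3.90 and 3.55. In the D3T livers they were 3.86, 3.97, 4.03, 3.71 and 3.85. The OLT livers had 3.94, 3.77, 3.96, 3.90 and 3.85. In the control livers they were 5.36, 3.90, 4.29, 3.95 and 4.19. Values above 4 came from 4 arrays, 1 of D3T and 3 of control, so the probe set did not pass the filter and is described from a fit of all 31042 probe sets. The array control 1 stood above the other control arrays.

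Means of Ephx2 were 3.74 ± 0.14 in BNF, 3.88 ± 0.12 in D3T, 3.88 ± 0.08 in OLT and 4.34 ± 0.59 in control livers (log2, SD, n = 5 each). No difference from control was called. The BNF difference was -0.60 (95% interval -0.99 to -0.21; limma without the filter, adjusted p = 0.187), the D3T difference -0.46 (adjusted p = 0.278) and the OLT difference -0.45 (adjusted p = 0.34). In that fit 1.02% of all probe sets were called for BNF, 3.14% for D3T and 1.47% for OLT. The BNF arrays lay below the control arrays by less than 0.01 at the nearest point, both at 3.90, and 1.83% of all probe sets had all BNF arrays below all control arrays. Without control 1 the differences were -0.34, -0.20 and -0.20. Between OLT and D3T the Ephx2 difference was 0.00 (95% interval -0.39 to 0.39), at the unequal doses given above, and both dithiolethiones differed from BNF by 0.14. At this level a fold change would depend on the background correction, so none is given. The levels of different probe sets are not compared here, since each probe set has its own response.

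Promoter sequence for Ephx1 was taken from RefSeq (build GRCr8), where each entry covers 250 bases before to 50 bases after an annotated start. Ephx1 had 2 entries on the minus strand. The upstream one, chr13:95275803-95276102, held none of the motifs searched. The other, chr13:95263068-95263367, is shown because it holds the letters of an antioxidant response element core, the element that Nrf2 binds; capitals mark that match and the AP-1 sites.
Ephx1 promoter 2: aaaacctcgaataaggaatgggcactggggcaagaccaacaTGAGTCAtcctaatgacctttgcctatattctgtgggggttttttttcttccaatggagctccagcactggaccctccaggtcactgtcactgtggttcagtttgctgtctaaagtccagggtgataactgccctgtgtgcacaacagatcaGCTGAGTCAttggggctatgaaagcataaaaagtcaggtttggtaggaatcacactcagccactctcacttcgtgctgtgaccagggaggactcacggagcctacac
The core was searched on both strands as TGACNNNGC, the AP-1 site as TGAGTCA, the xenobiotic response element core, bound by AhR, as GCGTG, and a DR4 element of the kind CAR binds as AGGTCA repeated after 4 bases. The antioxidant core was read on the opposite strand at -57 to -49, counted back from the start, and it overlaps the AP-1 site at -55 to -49. A second AP-1 site lay at -209 to -203. Of all 33469 promoters in the table, 12.1% held the antioxidant core, 4.63% the AP-1 site, 29.7% the GCGTG core and 0.00598% the DR4 letters. A match of letters describes the sequence and does not show binding.

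The genes whose profile was nearest to that of Ephx1 were taken by the root mean square difference over the 20 arrays, each gene centred on its own mean. They were Gstt3 (0.238 log2 units), a theta class glutathione transferase; Aldh1l1 (0.287), the folate enzyme formyltetrahydrofolate dehydrogenase; Ddc (0.289), aromatic amino acid decarboxylase; Mgst2 (0.300), a microsomal glutathione transferase; and Slc17a3 (0.327), an organic anion transporter. The median over the 7836 other genes was 0.981, and the spread of Ephx1 itself about its mean was 0.935. Without D3T 5 and OLT 1 the same genes were again the 5 nearest, with Ddc ahead of Aldh1l1. Because they were chosen for their likeness to Ephx1 in these arrays, their values are a description.

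Gstt3 had 11.90, 11.32, 12.21, 12.06 and 12.69 in BNF, 13.89, 13.74, 13.70, 13.57 and 13.19 in D3T, and 13.96, 12.70, 13.05, 12.92 and 12.96 in OLT livers, against 11.26, 11.18, 11.67, 11.15 and 11.81 in control livers. Its D3T and OLT arrays lay above all control arrays, OLT 1 was the highest OLT array and D3T 5 the lowest D3T array, as for Ephx1, while BNF and control overlapped. Relative to control its differences were 0.62 in BNF, 2.20 in D3T and 1.70 in OLT livers, beside 0.76, 2.24 and 1.70 for Ephx1. Ddc differed by 0.75, 2.20 and 1.72 in the same order. Aldh1l1, Mgst2 and Slc17a3 had a smaller OLT difference, of 1.24, 1.14 and 1.11. Of the nearest genes, 4 were in the promoter table, with 6 promoters, and 0 of these genes held the antioxidant core searched above. The 1 promoter of Nqo1, a known Nrf2 target, did not hold that core either. Absence from this window therefore does not show that a gene lacks the element.

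**Figure D3:**
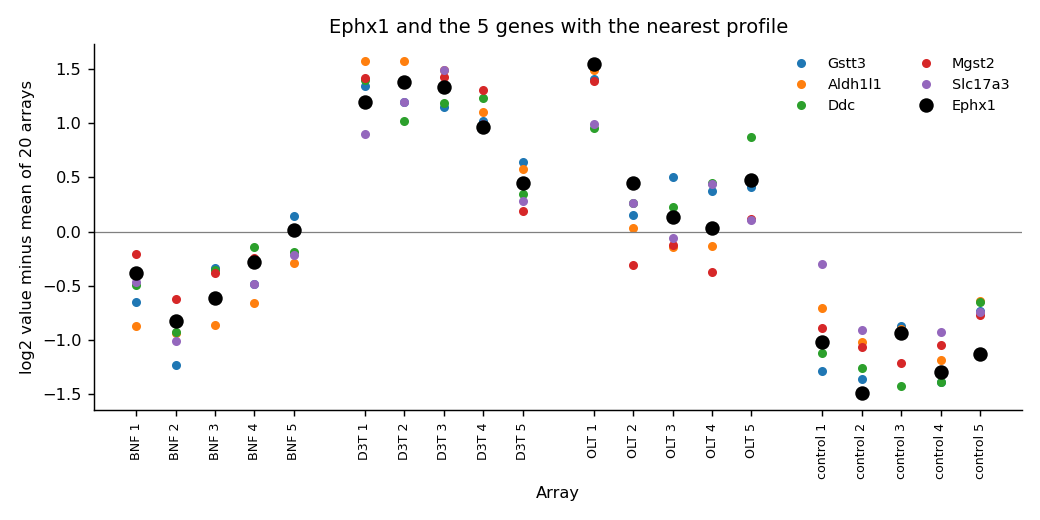
Log2 value minus the gene's mean over the 20 arrays, by array and diet, for Ephx1 (black) and the 5 genes of nearest profile (colours). D3T 1 to 4 and OLT 1 lie highest for Ephx1, at 0.96 or more, and the control arrays lowest, at -0.94 or less.

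For Ephx2 the nearest profiles were those of Pspc1 (0.177 log2 units), Mpv17l2 (0.181), Extl1 (0.183), Snx15 (0.183) and Alg10 (0.202), beside a median of 0.444 over all genes and a spread of 0.360 of Ephx2 itself. Pspc1, which encodes a paraspeckle protein, had 6.23 in control 1 and 4.14, 4.93, 4.40 and 4.66 in the other control livers, and lay between 4.05 and 4.40 in the compound diets. Extl1, of the exostosin family, likewise had its highest value, 5.12, in control 1. Both were chosen for their likeness to Ephx2, in which control 1 is highest too, so this is a description.

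Other Nrf2 target genes rose with Ephx1 most widely in D3T livers. Of 36 tested targets other than Ephx1, 26 rose and 0 fell with D3T (median difference 0.96), 10 rose and 1 fell with OLT (median 0.51), and 1 rose and 0 fell with BNF (median 0.20). All tested genes had medians of -0.02, -0.05 and -0.06 in the same comparisons, and 13.1%, 7.5% and 4.17% of them were called. Ephx1 stood high among the targets called: 7 of these rose by more than Ephx1 with D3T and 1 with OLT. With OLT the transferase Gstp1 and the reductase Akr1b8 also had larger differences, which were not called (limma, adjusted p = 0.0598 and 0.284). The Gstp1 difference, then 2.09, was called when D3T 5 and OLT 1 were left out (limma, adjusted p = 0.000368). Without D3T 5 and OLT 1 the targets that rose numbered 29 with D3T, 8 with OLT and 7 with BNF. The OLT count was 5 without OLT 1 alone or OLT 2 alone, 4 without control 2 and 6 without control 4. The BNF count was 4 without OLT 1 alone, 3 without D3T 5 alone, and 2 without BNF 2, OLT 5, control 1 or control 3.

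The aldo-keto reductase Akr7a3, which reduces aflatoxin dialdehyde, differed from control by 4.36 with D3T (limma, adjusted p = 0.000161) and by 2.57 with OLT (adjusted p = 0.0166), and by -0.01 with BNF (adjusted p = 0.999). Akr1b8, another aldo-keto reductase, was called higher with D3T (adjusted p = 0.00229), at 12.10 ± 3.54 in D3T livers against 4.04 ± 0.23 in control livers (log2, SD, n = 5 each), where the control value is at the filter level and no size of the rise is given. Gstp1, the pi class transferase, rose by 6.76 (adjusted p = 0.000271), or 7.70 without D3T 5 and OLT 1. With OLT the transferase Gsta3 rose by 1.29 (adjusted p = 0.0205) and Me1, the malic enzyme that makes NADPH, by 1.28 (adjusted p = 0.0369). The Gsta3 call was lost without control 2, and the Me1 call without any one of 6 arrays, OLT 1 among them. The target that fell with OLT was Hmox1, the heme-degrading enzyme, at -1.74; it was named because it is the only one.

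The quinone reductase Nqo1, a target of both Nrf2 and AhR, had its highest mean in BNF livers, unlike Ephx1. Nqo1 had 11.52, 12.14, 11.37, 11.42 and 11.87 in BNF, 11.51, 10.98, 10.96, 11.00 and 9.84 in D3T, and 11.10, 9.07, 8.82, 9.53 and 9.52 in OLT livers, against 9.0, 8.18, 7.52, 8.78 and 8.74 in control livers. It rose by 3.22 with BNF (limma, adjusted p = 4.36e-05) and by 2.41 with D3T (adjusted p = 0.00039), and differed by 1.16 with OLT (adjusted p = 0.0723), or 0.79 without D3T 5 and OLT 1. D3T and BNF livers overlapped in Nqo1 and did not differ by the test (log2 difference -0.81, adjusted p = 0.168), while Ephx1 was called higher in D3T than in BNF livers. Nfe2l2, the gene of Nrf2 itself, differed from control by 0.91 with BNF (adjusted p = 0.0266), -1.11 with D3T (adjusted p = 0.00306) and -0.63 with OLT (adjusted p = 0.0959). The BNF call for Nfe2l2 was lost when any one of 5 arrays was left out, control 4, control 5, BNF 1, BNF 2 or BNF 4.

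The 5 arrays highest in Ephx1, D3T 1 to 4 and OLT 1, were also the 5 highest in the mean of the 36 targets. Centred on their means over all arrays, Ephx1 lay at 0.96 to 1.38 and the targets at 0.95 to 1.27 in D3T 1 to 4. In D3T 5 they lay at 0.44 and -0.04. OLT 1 had 1.55 and 1.16, against 0.04 to 0.48 for Ephx1 and -0.43 to -0.03 for the targets in OLT 2 to 5. The BNF livers had -0.82 to 0.02 and -0.53 to -0.10, and the control livers -1.49 to -0.94 and -0.77 to -0.48. The arrays fall into separate clusters, so no correlation is given. Among the control arrays the highest in Ephx1, control 3 at -0.94, had a target mean of -0.71, while control 1 had the highest target mean, -0.48. The lowest OLT array for Ephx1, at 0.04, was thus just above the highest BNF array, at 0.02, while the target means of these groups overlapped.

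**Figure D4:**
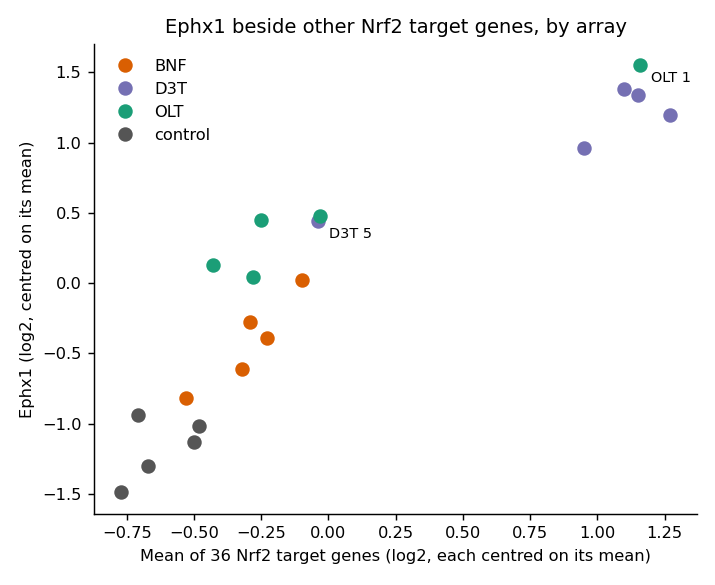
Ephx1 (vertical axis) against the mean of 36 other Nrf2 targets (horizontal axis), both log2 and centred over the 20 arrays, 1 point per array, coloured by diet. D3T 1 to 4 and OLT 1 lie at the upper right, with target means of 0.95 or more, and D3T 5 lies beside OLT 5.

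Glutathione S-transferases conjugate epoxides and so act on the same compounds as Ephx1. Beside the shares of all tested genes called, 13.1% with D3T, 7.5% with OLT and 4.17% with BNF, 12 of 17 transferases rose and 0 fell with D3T (median 0.86), and 7 rose and 0 fell with OLT (median 0.57), or 12 and 8 without D3T 5 and OLT 1. With BNF 0 rose and 0 fell (median 0.07), where 5 rose without D3T 5 and OLT 1, 2 without either of them alone, and 1 without control 1. Gstp1 and Gstt3 were described above, and Gstt1, of the theta class, rose by 1.96 with D3T (limma, adjusted p = 0.00055) and by 1.25 with OLT (adjusted p = 0.0238), or 0.84 without D3T 5 and OLT 1. The OLT call of Gstt1 was lost without control 2, control 4 or control 5, and the OLT count of transferases was 4 without control 2. Transferases also stand in the list of Nrf2 targets, so the counts are not separate results.

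Among P450s that form epoxides from xenobiotics, those of the Cyp1 family rose with BNF. Cyp1b1 was at 13.05 ± 0.27 in BNF livers and 2.48 ± 0.03 in control livers (log2, SD, n = 5 each; difference 10.58, limma, adjusted p = 6.53e-23), and the control value is at background. Cyp1a1 rose by 8.33 (adjusted p = 6.4e-05) and Cyp1a2 by 0.99 (adjusted p = 0.00406). These are AhR targets, and they did not pass the test with D3T, where Cyp1a1 differed by -0.06 and Cyp1a2 by -0.19, nor with OLT, where the differences were 2.25 and 0.41. Without D3T 5 and OLT 1 the OLT differences of 3.13 for Cyp1a1 and 0.52 for Cyp1a2 were called (limma, adjusted p = 0.0201 and 0.0107), as was that of -0.39 for Cyp1a2 with D3T (adjusted p = 0.0248). The Ephx1 difference was smallest in BNF livers, where the Cyp1 differences were largest.

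In the whole list of 14 such P450s and their reductases, 3 rose and 1 fell with BNF, 2 rose and 3 fell with D3T, and 1 rose and 1 fell with OLT. Over all tested genes 4.17%, 13.1% and 7.5% were called in these comparisons. The list medians were -0.14, -0.07 and 0.05. When D3T 5 and OLT 1 were left out, 4 rose and 1 fell with BNF, 2 rose and 5 fell with D3T, and 2 rose and 1 fell with OLT. Por, the reductase that supplies P450s with electrons, fell by 1.88 with D3T (limma, adjusted p = 2.54e-05) and by 1.14 with OLT (adjusted p = 0.00406). Cyb5r3, cytochrome b5 reductase, rose by 1.0 with D3T (adjusted p = 0.000176) and by 0.49 with OLT (adjusted p = 0.0458), the OLT call being lost without any one of 13 arrays. Cyp3a9 fell by 2.30 with D3T (adjusted p = 0.00167) and by 1.61 with BNF (adjusted p = 0.0413), where leaving out any one of 8 arrays ended the call.

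Of 17 tested targets of CAR, a known regulator of Ephx1, and of PXR, 2 rose and 5 fell with D3T. Few were called with BNF or OLT. The listed targets Cyp2b1, Cyp2b2, Cyp3a62, Aldh1a7, Ugt1a1, Ugt2b37 and Gadd45b were not among those tested. The tested genes also include those of the receptors themselves, Nr1i2 and Nr1i3. The counts therefore do not measure the activity of CAR. Of 17 tested, 0 rose and 1 fell with BNF, 2 rose and 5 fell with D3T, and 0 rose and 2 fell with OLT, with medians of -0.34, -0.33 and -0.20, beside 4.17%, 13.1% and 7.5% of all tested genes called. With BNF and OLT these counts are near the background. Leaving out D3T 5 and OLT 1, 1 rose and 1 fell with BNF, 2 rose and 7 fell with D3T, and 0 rose and 2 fell with OLT. The BNF fall was Cyp3a9, and the OLT falls were Por and Nr1i2. Aldh1a1, an aldehyde dehydrogenase of retinoid metabolism, rose by 1.35 with D3T (limma, adjusted p = 0.00776). Nr1i2, the gene of PXR, fell by 0.90 with D3T (adjusted p = 0.000469) and by 0.73 with OLT (adjusted p = 0.00462). Nr1i3, the gene of CAR, differed by -0.45 with BNF, 0.52 with D3T and -0.20 with OLT and was not called. The BNF counts were 1 that rose and 2 that fell after centring each array on its median, and ranged over 0 to 1 and 0 to 2 when single arrays were left out. With D3T, 1 rose and 3 fell without D3T 1, without D3T 2 or without control 5.

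**Figure D5:**
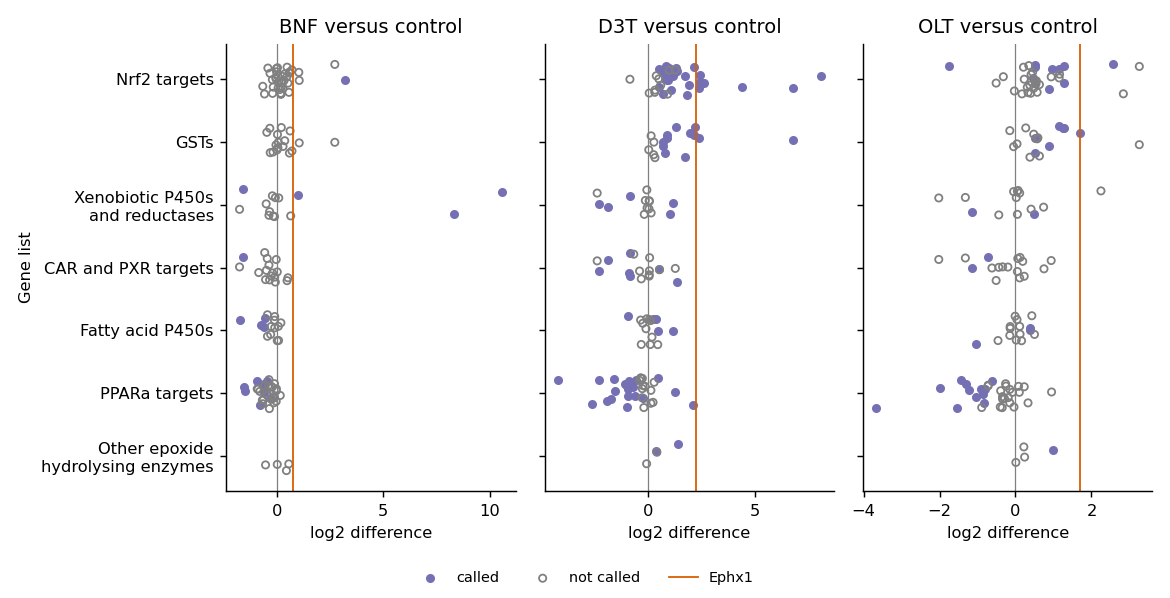
Log2 difference from control of each tested gene in 7 lists (rows) for BNF, D3T and OLT (panels); filled points were called, open points were not, and the orange line marks Ephx1. With D3T, 26 of 36 Nrf2 targets were called higher and 7 of these lie to the right of Ephx1.

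On the side of Ephx2, PPARa targets and other genes of fatty acid oxidation were called lower more often than higher in all 3 diets. Of 33 tested, 0 rose and 10 fell with BNF (median -0.44), 3 rose and 17 fell with D3T (median -0.41), and 0 rose and 12 fell with OLT (median -0.39). Over all tested genes 4.17%, 13.1% and 7.5% were called. Calls over all probe sets leaned lower too, with 189 higher and 261 lower for BNF, 599 and 903 for D3T and 198 and 628 for OLT, a lean that centring turned round (289 and 212, 1227 and 718, 635 and 497). After centring, 0 of the list rose and 7 fell with BNF, 3 rose and 14 fell with D3T, and 0 rose and 12 fell with OLT. The falls numbered 11, 19 and 12 in the same order without D3T 5 and OLT 1, with 0, 3 and 0 rises. Cpt1a, the enzyme that commits fatty acids to mitochondrial oxidation, fell by 2.65 with D3T (limma, adjusted p = 1.16e-05) and by 2.00 with OLT (adjusted p = 0.000318), and differed by -0.03 with BNF. Vnn1, a pantetheinase, fell by 4.22 with D3T (adjusted p = 1.23e-06) and fell by 3.66 with OLT (adjusted p = 8.61e-06). Ech1, an enoyl-CoA isomerase, fell by 2.30 with D3T (adjusted p = 2.35e-06) and fell by 1.55 with OLT (adjusted p = 0.000258). The thioesterase Acot4 fell in all 3 diets, by 1.51 with BNF, 1.74 with D3T and 1.43 with OLT (adjusted p = 0.00295, 0.000325 and 0.00334). The palmitoyltransferase Cpt2 likewise fell by 0.80, 0.99 and 0.85 in the same order (adjusted p = 0.00432, 0.000278 and 0.00184). Crat, carnitine acetyltransferase, fell by 1.61 with D3T (adjusted p = 0.0133) and was not called with OLT (adjusted p = 0.198). It fell by 1.54 with BNF (adjusted p = 0.0377), a call lost without any one of 8 arrays. The BNF count was 5 without BNF 1, BNF 2, control 1 or control 2, and 6 without control 3. The Ephx2 values, at the filter level, do not allow a comparison with these falls. Ppara itself had 1.82 to 2.89 and was not tested.

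P450s that epoxidize or hydroxylate fatty acids, some of which supply Ephx2 with substrate, moved in both directions. Of 15 tested, 0 rose and 4 fell with BNF (2 after centring), 4 rose and 1 fell with D3T, and 2 rose and 1 fell with OLT, beside 4.17%, 13.1% and 7.5% of all tested genes called. Cyp2c22 was lower by 1.71 in BNF livers (log2 difference -1.71, limma, adjusted p = 8.81e-05) and higher by 1.17 in D3T livers (adjusted p = 0.00157). Cyp2j3, an epoxygenase of arachidonic acid, fell by 0.72 with BNF (adjusted p = 0.0122). Cyp4a1, a PPARa target that hydroxylates fatty acids, fell by 0.60 with BNF, 0.94 with D3T and 1.03 with OLT (adjusted p = 0.0125, 0.000131 and 0.000174); the BNF call ended when arrays were centred on their median. Cyp4f1, which also hydroxylates fatty acids, rose by 0.47 with D3T (adjusted p = 0.00393) and by 0.38 with OLT (adjusted p = 0.0254), the OLT call being lost without any one of 4 arrays. The OLT rises were 0 without D3T 5 and OLT 1, and also without OLT 1 alone or control 2 alone. Without D3T 5 and OLT 1, 5 fell with BNF and 4 rose and 3 fell with D3T. The D3T rises were 2 without D3T 2.

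Other genes listed under epoxide hydrolysis were few, and for Mest an action on epoxides is not established here. Of Lta4h, Ebp, Dhcr7 and Mest, Dhcr7 and Ebp rose with D3T and Dhcr7 rose with OLT, while none was called with BNF. Over all tested genes 13.1%, 7.5% and 4.17% were called with D3T, OLT and BNF. With 4 genes, counts of 1 or 0 cannot be told from these shares. The counts were 2, 0 and 0 for D3T, OLT and BNF without D3T 5 and OLT 1. Dhcr7 and Ebp belong to cholesterol synthesis and together form the cholesterol epoxide hydrolase. Dhcr7 rose by 1.40 with D3T (limma, adjusted p = 0.00116) and by 0.99 with OLT (adjusted p = 0.0218), the OLT call being lost without control 1, control 2 or OLT 1. Ebp rose by 0.36 with D3T (adjusted p = 0.0392), a call lost without any one of 6 arrays. Lta4h, the leukotriene A4 hydrolase, differed by 0.45 with BNF, -0.08 with D3T and 0.01 with OLT. Ephx4 had 2 probe sets at 2.40 to 2.58 and 2.76 to 2.92, below the filter, and Ephx3 was not analysed here.

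Markers of other liver cells moved in the BNF livers. Over all tested genes 4.17% were called with BNF, 13.1% with D3T and 7.5% with OLT. Of 9 stellate cell and fibroblast markers 5 rose with BNF, with a mean log2 level of 7.04 to 7.86 in BNF livers and 6.14 to 6.94 in control livers, and of 12 macrophage markers 2 rose, with 7.88 to 8.98 in BNF and 7.23 to 7.87 in control livers. Of 7 endothelial markers 0 were called in any diet, and 1 of 2 cholangiocyte (0 without D3T 5 and OLT 1) and 1 of 4 lymphocyte markers rose with BNF; the cholangiocyte markers Krt19, Krt7, Spp1, Cftr and Cldn4 were below the filter in all diets. Of 11 periportal hepatocyte markers 1 rose and 3 fell with BNF, with a mean level of 11.65 to 12.41 in BNF livers and 12.53 to 12.66 in control livers, which do not overlap. Of 10 pericentral hepatocyte markers 4 fell with D3T, where their mean level was 10.77 to 11.59 in D3T and 11.40 to 11.98 in control livers. With BNF 1 pericentral marker rose, Cyp1a2, the AhR target described above. A fall was called for 1 stellate marker with D3T, and for 1 macrophage and 1 periportal marker with OLT. With D3T 1 periportal marker rose, Cyp2f4, which also stands in the list of xenobiotic P450s, and 1 fell. Lists with 1 call are too short to be told from the shares above. The part of these cell types in the Ephx1 differences was not tested. The markers of hepatocytes at large, at 14.60 to 14.78 in BNF and 14.38 to 14.67 in D3T livers, lay at 14.61 to 14.66 in OLT and 14.40 to 14.74 in control livers. Of these 11 markers 1 rose with BNF and 1 fell with D3T.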

How the data were processed

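Liver RNA of 20 rats was measured on 1-colour Affymetrix arrays, 1 per rat, in 4 diets of 5, per the labels. The deposited values are log2 probe set summaries made by the authors with GCRMA, per the submitters' processing notes; its version is not given in the sources used here. GCRMA corrects background and normalizes between arrays, and values near its floor are compressed. Scan dates were not used here. The arrays' medians over tested probe sets, averaged by diet, differed from control by at most 0.167 (lower in OLT), so values centred on each array's median were also taken.

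The platform annotation named the probe sets, with symbols updated by gene ID: 20826 had 1 symbol, 436 several and 9780 none, and 20758 matched the RefSeq table. Those above 4 in at least 5 arrays were fitted in R 4.3.3 with limma 3.58.1 (lmFit, eBayes with trend, a mean per diet, two-sided), with Benjamini-Hochberg adjustment over 12947 probe sets. A gene with several kept probe sets was represented by the one with the highest mean. Ephx2 failed the filter, so a fit of all 31042 was used for it. Named genes are the members, the 5 nearest profiles of each, up to 3 called, non-overlapping members per list and comparison, and set anchors such as Nqo1. The members, lists and tests were chosen with earlier results of these data known. The labels describe 5 separate rats per diet. Replicate numbers did not pair arrays: 11 of 30 same-number pairs correlated above 0.1, from -0.272 to 0.297. The test was tried on simulated D3T and control arrays with 12947 probe sets, recovering 78 of 100 at 2-fold and 97 of 100 at 4-fold changes, with 13 false among 188 calls. Alternatives were centring, quantile normalization, other filters, eBayes without trend, array weights, only the groups compared, the replicate block and leaving out arrays; leaving out OLT 5 too was added after the data had been seen.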

Additional observations from a re-analysis of the deposited data

Results flagged for a closer look

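Ephx2 in the array control 1 was 5.36, far from the other control arrays at 3.90 to 4.29. The gap to the next array was 0.729 of the range of the group, above the critical value of 0.71 for 5 arrays, which chance exceeds in about 1 in 20 groups; 8 groups were examined. For Ephx1, OLT 1 had a gap of 0.709 of its group's range and D3T 5 of 0.555, so OLT 1 lay just under that value and D3T 5 further below.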

How the results depend on the processing

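For Ephx1, the D3T and OLT rises over control kept their call in every alternative run. The BNF difference was called after quantile normalization (0.86, adjusted p = 0.0231), with array weights (0.91, adjusted p = 0.000786), with only the groups compared (0.76, adjusted p = 0.0293), without D3T 5 and OLT 1 (0.76, adjusted p = 0.00719) and without OLT 5 as well (0.76, adjusted p = 0.00769); all are limma values. The OLT versus D3T difference was called without those 2 arrays (-0.94) or 3 arrays (-1.01, adjusted p = 0.00372), and the OLT versus BNF difference of 0.94 was not called with only the groups compared (adjusted p = 0.0624). Leaving out D3T 5 and OLT 1 widens the OLT versus D3T difference, and why the other calls moved was not tested. Centring gave Ephx1 differences of 0.83, 2.38 and 1.87 for BNF, D3T and OLT against control. Leaving out single arrays gave Ephx1 differences of 0.65 to 0.86 (BNF versus control), 2.16 to 2.39 (D3T), 1.45 to 1.83 (OLT), -0.79 to -0.41 (OLT versus D3T), 1.38 to 1.63 (D3T versus BNF) and 0.69 to 1.07 (OLT versus BNF).

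Counts of called probe sets moved more. With array weights, whose estimate stopped before convergence, they were 1480 (BNF versus control, 450 otherwise), 2885 (D3T, 1502), 2054 (OLT, 826), 112 (OLT versus D3T, 0), 3337 (D3T versus BNF, 1935) and 2767 (OLT versus BNF, 1246). With no filter they were 974 (D3T) and 457 (OLT), and with only the groups compared 382 (OLT). OLT versus D3T gave 549 without 2 arrays and 502 without 3. Leaving out single arrays gave 263 to 508, 969 to 1673, 523 to 1310, 0 to 236, 1344 to 2180 and 777 to 1675 in the same order. Counts moved by over 1.5 times for BNF without BNF 1 (263), BNF 2 (291) or control 2 (297), for D3T without D3T 3 (969), for OLT without control 1 (523), control 2 (524), control 5 (544), OLT 1 (532) or OLT 5 (1310), for OLT versus D3T without D3T 4 (1), D3T 5 (236) or OLT 1 (131), and for OLT versus BNF without BNF 1 (777). With centring, more calls were higher than lower: 57.7% were higher for BNF (42% as reported), 63.1% for D3T (39.9%), 56.1% for OLT (24%) and 58.4% for OLT versus BNF (44.6%). Quantile normalization gave 54.4%, 49.9% and 43.6% for BNF, D3T and OLT against control.

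With the replicate block, on numbers that do not pair rats, no Ephx1 call changed (BNF adjusted p = 0.101 in limma). A planned test of Ephx1 minus Ephx2 gave shifts from control of 1.36, 2.69 and 2.16 for BNF, D3T and OLT. Each had an exact permutation p = 0.00794, the smallest that 5 against 5 arrays allow. Under the block each had an exact sign-flip p = 0.0625, the smallest that 5 pairs allow. Ephx2 is at background and the Ephx1 groups do not overlap, so nothing rests on these shifts. Leaving out single arrays gave 1.14 to 1.49, 2.48 to 2.84 and 1.92 to 2.29. The mean of a gene's kept probe sets was not run, since each member has 1 probe set, and the stricter filter gives no Ephx2 value.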
